A study of Mus musculus with 12 samples.

Results

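The genes described here encode the calcium handling machinery and the ion channels of the heart muscle cell. They are 42 genes chosen by symbol: 7 of calcium release and its store, 6 pumps, exchangers and the mitochondrial uniporter, 5 calcium channel subunits, 5 calcium sensors and IP3 receptors, 3 genes of the sodium channel and sodium pump, 13 potassium channel subunits, 2 pacemaker channels and 1 gap junction gene. Of the 42, 40 had a probe set named for them on the array, out of 19505 genes with one, and each of the 40 had a single probe set. Atp2b4 and Itpr1 had none and are not analysed here. Of the 40, 39 were among the 13653 genes bright enough to be tested. Fkbp1b, which encodes a binding partner of the calcium release channel, had log2 signals of 1.43 to 1.96 and was left out of the tests.

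The heart was sampled in 3 groups, with 4 Affymetrix arrays per group. The sample titles number the replicates 1 to 4 and do not say whether each came from 1 mouse. AngIV mice were made diabetic with streptozotocin (STZ), a toxin that kills the cells that make insulin. They then received angiotensin IV, a peptide fragment of angiotensin II. The dose, which the titles call high, was 2.88 mg/kg/day from the end of week 8 to the end of week 24. DM mice received STZ alone, and NC mice, the negative controls, received vehicle on the same 5 days in place of STZ. Diabetic mice of both kinds were taken into the experiment on a fasting blood glucose of at least 16.7 mM, and the labels give 6 months for all tissues and 4 months for the treatment. No group received angiotensin IV without diabetes. The strain, the sex and the part of the heart that was dissected are not given in the sources used here. Groups follow the titles and source names; a disease state tag contradicts both, with NC tagged as diabetic and AngIV as control, and was not used.

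In a heart muscle cell, an action potential opens L-type calcium channels in the cell membrane, and the calcium that enters opens ryanodine receptors on the sarcoplasmic reticulum, the calcium store. The SERCA pump, held back by phospholamban, returns calcium to the store, and the sodium calcium exchanger carries calcium out of the cell. Potassium channels end the action potential and set the resting voltage, pacemaker channels drive spontaneous beating in the sinus node, and gap junctions pass the current from cell to cell.

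All values are log2 signals, so that 1 unit is a doubling of the signal. Signal was set against a background limit, the 95th percentile of the negative controls, which lay at a mean log2 signal of 5.53 on the AngIV, 5.53 on the DM and 5.48 on the NC arrays. The group means of 31 of the 40 members lay above it in all groups. Those of 7, Fkbp1b, Cacna1g, Kcne1, Kcnj2, Kcnv2, Hcn2 and Hcn4, lay below it in all groups, and those of Mcu and Kcnd3 lay on both sides. For these 9 genes a log2 change is a difference of signals near background and no fold is given. The brightest probe sets among the members were those of Atp2a2, Pln and Hrc, and the dimmest those of Fkbp1b, Hcn2 and Hcn4, although the signals of different probe sets do not rank the RNA of different genes.

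The arrays carried the RNA of heart muscle: the mean over 10 genes listed as ventricular markers was 9.96 to 10.03 on the AngIV, 9.92 to 9.97 on the DM and 9.86 to 10.03 on the NC arrays. Of the 10, 9 were above the negative controls in every group, and Hand1 was below them. This mean was not used to tell the chambers apart. Atrial markers were uneven. The mean over 9 atrial marker genes was 5.30 to 5.44 on the AngIV arrays, 5.02 to 7.37 on the DM arrays and 5.37 to 7.81 on the NC arrays, and Myl7, a myosin light chain of the atria, was above the negative controls on DM arrays 1, 2 and 4 and on NC arrays 1 and 3. Myl4 and Sln were high on the same 5 arrays, but not all 9 markers followed Myl7. Myl1 spanned 6.00 to 6.88 on the AngIV, 6.75 to 7.15 on the DM and 7.60 to 7.96 on the NC arrays. Nr2f2 had its highest group mean in AngIV, and Nppa lay at 7.33 to 9.65 on the AngIV arrays. Bmp10 was below the negative controls in every group. The mean of the 9, later used as a covariate, is thus no pure measure of atrial tissue. NC array 1 also had the highest mean over 8 smooth muscle and pericyte markers, 7.18 against 5.79 to 6.57 on the other 11 arrays. Of 7 nodal and conduction markers, 1 was above the negative controls in every group. The 5 arrays with Myl7 above the negative controls are left out in an alternative, chosen after seeing the data, that leaves 4 AngIV, 1 DM and 2 NC arrays.

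**Figure D1:**
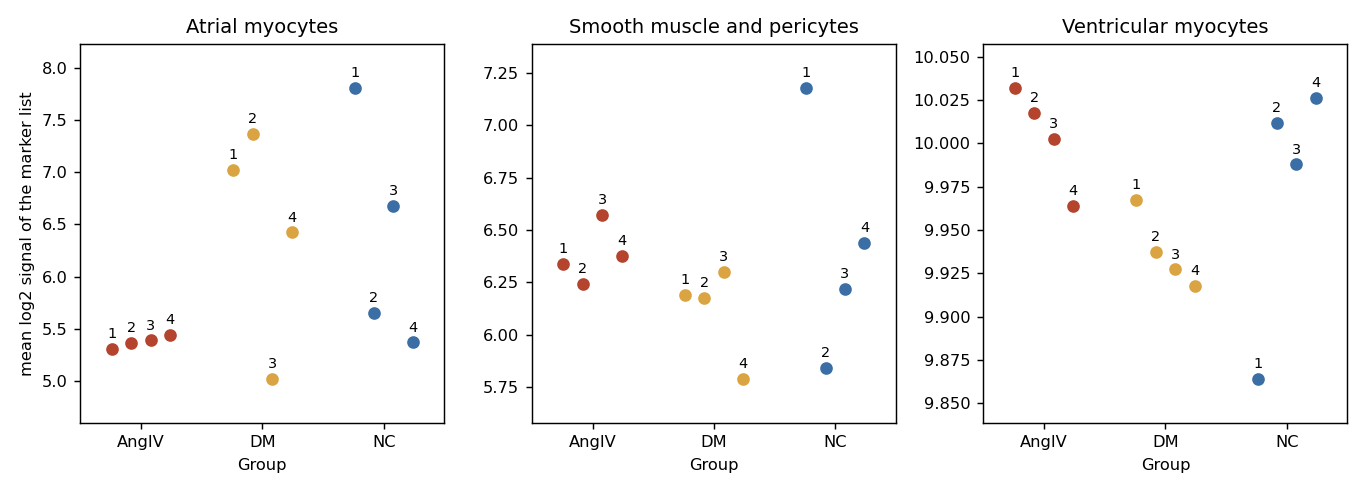
Mean log2 signal of 3 marker lists on each array, by group, with the replicate number above each point. The AngIV arrays lie between 5.30 and 5.44 on the atrial list, and NC array 1 is highest on the atrial and smooth muscle lists and lowest on the ventricular list, at 9.86.

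Across the 39 tested members, none passed the test in any of the 3 comparisons (limma, 1 model over the 12 arrays, with p adjusted by Benjamini-Hochberg over 13653 genes and called under 0.05). In AngIV against NC, 2.15% of all tested genes were called, 0 members were called, and 8 members had an unadjusted p under 0.05, which is 20.5% of them beside 18.6% of all tested genes. Of those 8, Kcnj12, Kcnh2 and Kcnj11, all potassium channel genes, had positive changes (3 of 39 members, beside 10.9% of all tested genes), and Fxyd1, Gja1, Casq2, Mcu and Jph2 had negative ones (5 of 39, beside 7.74%). A positive change of any size was found in 14 of 39 members and in 50.6% of all tested genes. The 4 AngIV arrays did not overlap the 4 NC arrays for 7 members, 17.9% of them, beside 12.8% of all tested genes. The median log2 change of the members was -0.046, with -0.47 to 0.46 as the range, and that of all tested genes was 0.0033.

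In AngIV against DM, where 0% of all tested genes were called, 0 members were called by limma and 3 had an unadjusted p under 0.05, Kcnj12 with a positive and Kcne1 and Scn4b with a negative change, beside 8.78% of all tested genes (5.27% with a positive and 3.51% with a negative change). A positive change of any size was found in 21 of 39 members and in 52.9% of all tested genes. AngIV and DM arrays did not overlap for 2 members, Casq2 and Jph2, beside 5.76% of all tested genes. The median change of the members was 0.021 and that of all tested genes 0.012. In DM against NC, where 0.022% of all tested genes were called, 0 members were called by limma and 5 had an unadjusted p under 0.05, Kcne1 and Scn4b with positive and Gja1, Camk2g and S100a1 with negative changes, beside 10.7% of all tested genes (5.62% with a positive and 5.08% with a negative change). A change above 0 was found in 16 of 39 members and in 49.6% of all tested genes. DM and NC arrays did not overlap for 2 members, Gja1 and Camk2g, which is 5.13% of them, beside 5.3% of all tested genes. The median change was -0.024 and that of all tested genes -0.0016. In each comparison the share of members under an unadjusted p of 0.05 was near that of all tested genes. The comparisons share arrays, so a gene that is low on the NC arrays, for example, moves 2 of them at once. Without the 5 arrays with atrial signal, 0 members were called by limma in any comparison, and 9 of 39 in AngIV against NC, 2 in AngIV against DM and 1 in DM against NC had an unadjusted p under 0.05, beside 16.5%, 7.92% and 5.35% of all tested genes in that fit, whose DM arm is 1 array assumed to vary like the other groups. In pieces of tissue, fewer cells of a type and less RNA per cell cannot be told apart.

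**Figure D2:**
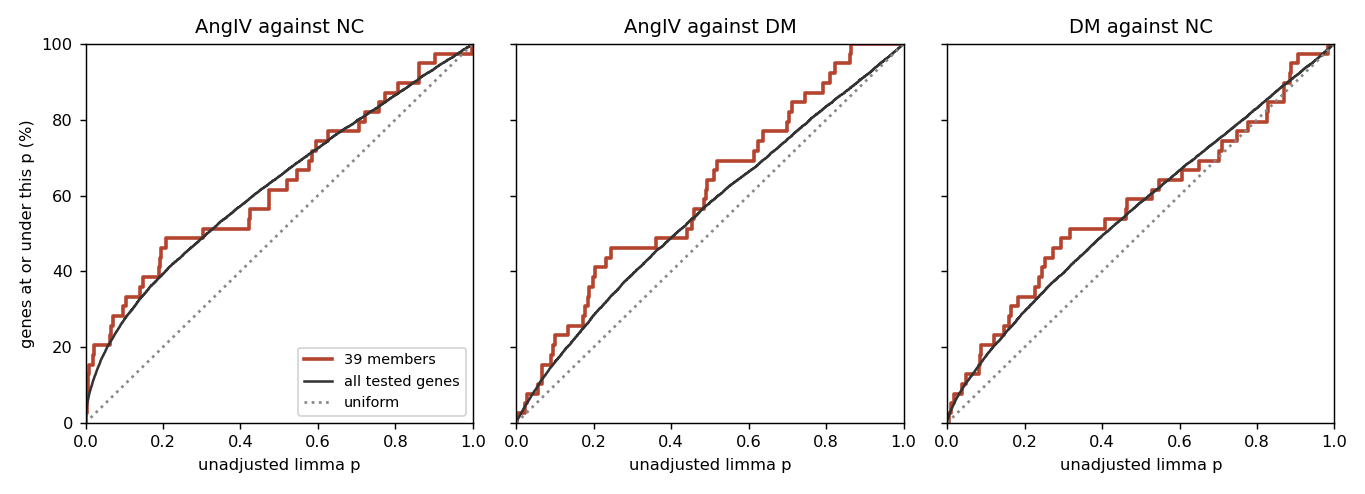
Share of genes at or under each unadjusted limma p, for the 39 tested members (red steps), all 13653 tested genes (black line) and a uniform distribution (dotted). At 0.05 the members stand at 20.5% in AngIV against NC, where all tested genes stand at 18.6%.

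**Figure D3:**
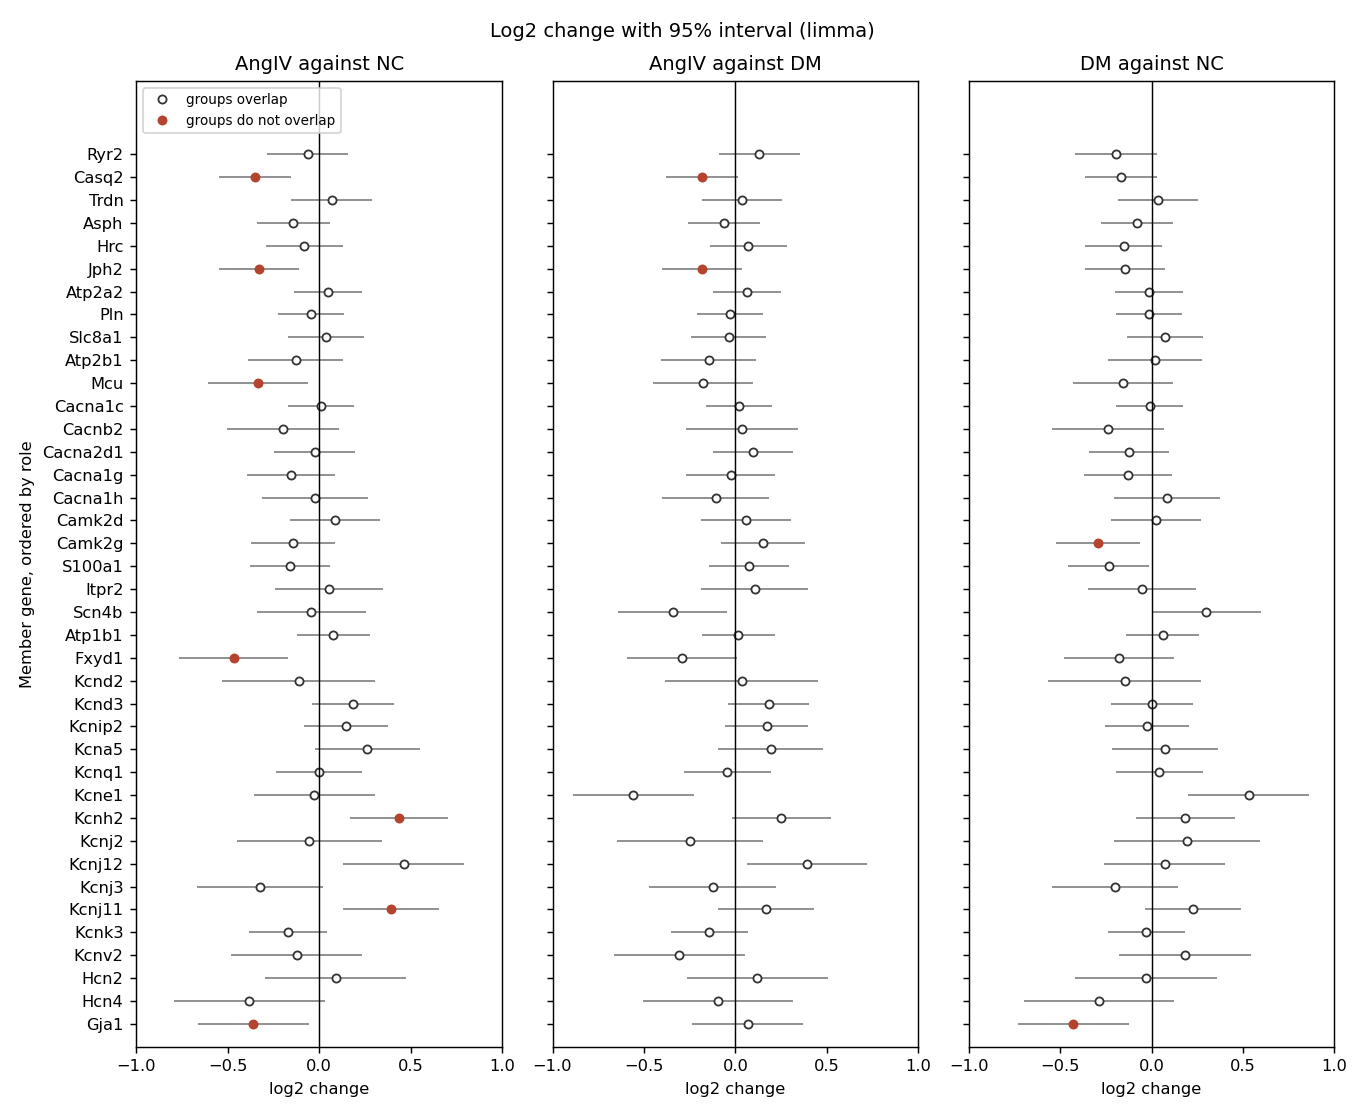
Log2 change of each tested member with its 95% interval in the 3 comparisons, members in the order of their roles. Filled points are members whose groups do not overlap, 7 in AngIV against NC, 2 in AngIV against DM and 2 in DM against NC, and none of the members passed the adjusted test.

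The region before the start of transcription is shown for Casq2, Kcnh2 and Fxyd1, the 3 members with the smallest p in AngIV against NC. Each line gives the 250 bases upstream of the RefSeq start in the assembly GRCm38.p6, 5′ to 3′ on the strand of the gene, with matches to the searched motifs in capitals. The windows are chr3:102086165-102086414 on the plus strand for Casq2, chr5:24329592-24329841 on the minus strand for Kcnh2 and chr7:31054854-31055103 on the minus strand for Fxyd1.
Casq2: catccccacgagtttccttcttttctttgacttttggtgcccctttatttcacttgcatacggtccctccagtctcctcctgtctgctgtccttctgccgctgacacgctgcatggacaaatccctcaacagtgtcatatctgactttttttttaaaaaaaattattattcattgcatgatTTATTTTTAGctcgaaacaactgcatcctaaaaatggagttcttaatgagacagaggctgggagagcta
Kcnh2: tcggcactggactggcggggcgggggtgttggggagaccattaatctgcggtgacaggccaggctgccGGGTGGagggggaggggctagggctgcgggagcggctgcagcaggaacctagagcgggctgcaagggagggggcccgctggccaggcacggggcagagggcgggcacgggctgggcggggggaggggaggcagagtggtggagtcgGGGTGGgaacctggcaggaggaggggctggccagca
Fxyd1: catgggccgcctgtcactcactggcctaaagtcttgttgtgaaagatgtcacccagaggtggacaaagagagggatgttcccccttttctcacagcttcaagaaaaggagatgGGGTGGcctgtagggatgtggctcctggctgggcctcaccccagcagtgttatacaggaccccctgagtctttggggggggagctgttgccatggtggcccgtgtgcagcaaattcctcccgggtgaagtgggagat
The motifs were searched on both strands in the promoter windows of the 29 members that have one in the table. The AT-rich MEF2 element, a binding site of muscle transcription factors, was found in 1 of 29, Casq2, where it begins 69 bases upstream of the start, beside 2.08% of the 10965 tested genes with a window. The CArG box, a site of serum response factor, was found in 0 of 29 and in 1.61% of tested genes. The E-box CACGTG was found in 1 of 29, Kcnj2, and in 9.41% of tested genes. The sequence GGGTGG, which Krüppel-like factors can bind, was found in 16 of 29 members and in 37.4% of tested genes, among them Kcnh2, 182 and 36 bases upstream, and Fxyd1, 137 bases upstream. A match is a run of letters and shows no binding.

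Among the genes of calcium release and the store, the 2 with the smallest p in AngIV against NC were Casq2 and Jph2. Casq2 encodes calsequestrin, the protein that binds calcium inside the store, and Jph2 encodes junctophilin, which ties the store membrane to the cell membrane. Ryr2, the release channel itself, had the largest change of the role in DM against NC, -0.19, and a smaller one, -0.06, in AngIV against NC. Of the 6 tested genes of this role, 5 had a negative change in AngIV against NC, 5 in DM against NC and 3 in AngIV against DM. Of all 13653 tested genes, 6740, 6887 and 6424 had a negative change in these comparisons, in the same order. AngIV against NC and DM against NC share the NC arrays, and 0 of the 6 genes passed the test.

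Casq2 had log2 signals of 9.81, 9.81, 9.82 and 9.66 on AngIV arrays 1 to 4, 9.97, 9.89, 10.03 and 9.94 on the DM arrays and 9.96, 10.11, 10.18 and 10.25 on the NC arrays. All AngIV arrays lay below all DM and all NC arrays, the lowest of them AngIV array 4, and the DM arrays overlapped the NC arrays. The log2 change was -0.35 ± 0.09 in AngIV against NC, 1.28-fold lower (SE, limma adjusted p = 0.0582), -0.18 ± 0.09 in AngIV against DM (adjusted p = 0.579) and -0.17 ± 0.09 in DM against NC (adjusted p = 0.548). Casq2 had the smallest adjusted p of the members in AngIV against NC, and it passed the test in 5 of 23 alternative settings, with adjusted p-values of 0.0116 to 0.156 over all of them. With the atrial marker mean as a covariate its change was -0.42 ± 0.10 (adjusted p = 0.0411), and without the 5 arrays with atrial signal it was -0.40 ± 0.12 (adjusted p = 0.152).

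Jph2 had 7.69, 7.67, 7.65 and 7.42 on AngIV arrays 1 to 4, 7.69, 7.82, 7.72 and 7.94 on the DM arrays and 7.87, 7.84, 7.92 and 8.12 on the NC arrays. All AngIV arrays lay below all DM and all NC arrays, although AngIV array 1 and DM array 1 round to the same value, and AngIV array 4 was again the lowest of its group. The change was -0.33 ± 0.10 in AngIV against NC, 1.25-fold lower (limma adjusted p = 0.104), -0.18 ± 0.10 in AngIV against DM (adjusted p = 0.615) and -0.14 ± 0.10 in DM against NC (adjusted p = 0.666).

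Ryr2, the ryanodine receptor, had 9.64, 9.43, 9.33 and 9.40 on AngIV arrays 1 to 4, 9.51, 9.15, 9.35 and 9.28 on the DM arrays and 9.41, 9.48, 9.57 and 9.60 on the NC arrays. The groups overlapped in every comparison, and DM array 2 was the lowest of the 12. Its change was -0.06 in AngIV against NC, with a 95% interval of -0.29 to 0.16, 0.13 (-0.09 to 0.35) in AngIV against DM and -0.19 (-0.42 to 0.03) in DM against NC. The other members of this role are partners of the release channel or calcium binding proteins of the store. Trdn, which encodes the anchor triadin, spanned 9.02 to 9.37 on the AngIV, 9.003 to 9.30 on the DM and 9.01 to 9.13 on the NC arrays. Asph, the locus of junctin, spanned 9.76 to 10.02 on the AngIV, 9.83 to 9.97 on the DM and 9.88 to 10.08 on the NC arrays, and its probe set may read the other products of that locus too. Hrc, which encodes a histidine-rich calcium binding protein, spanned 10.15 to 10.40 on the AngIV, 10.02 to 10.37 on the DM and 10.27 to 10.37 on the NC arrays. Their changes ran from -0.15 to 0.07 over the 3 comparisons.

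**Figure D4:**
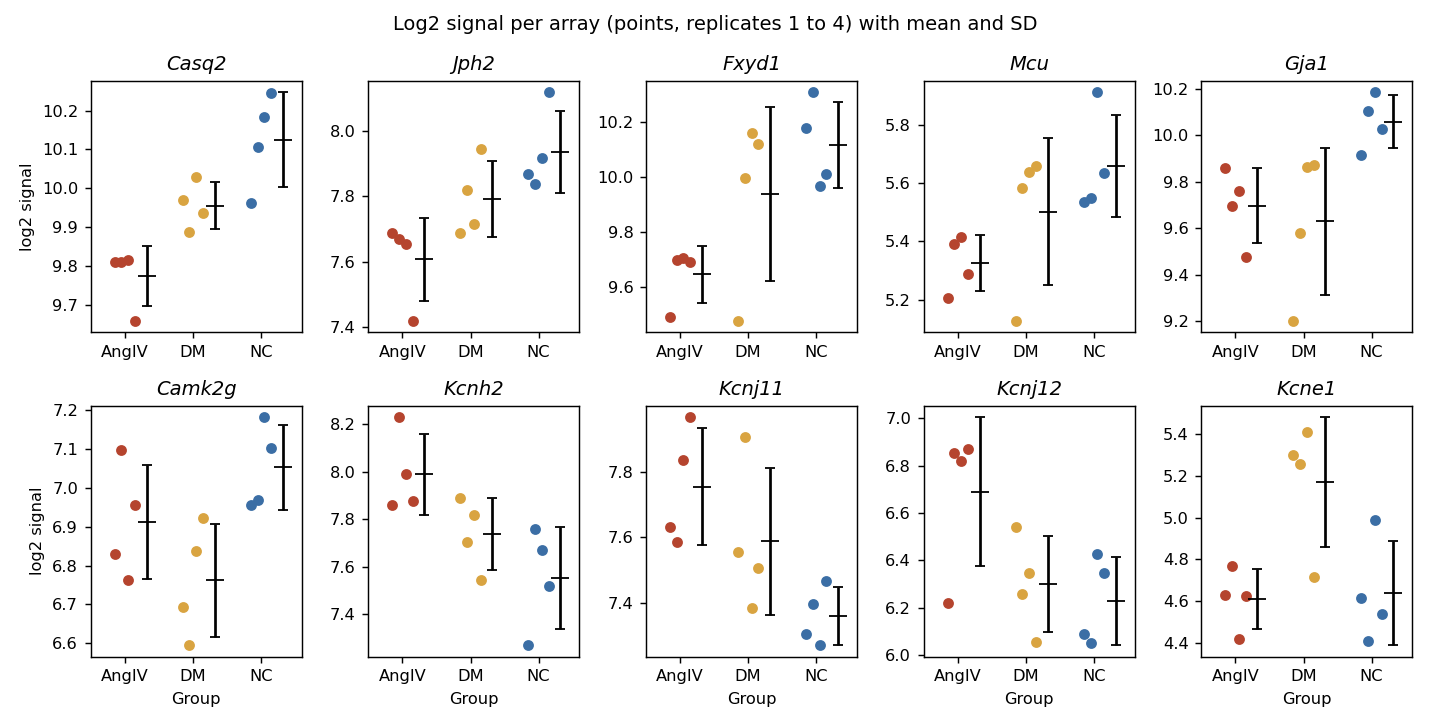
Log2 signal of 10 members on each array, in the order AngIV, DM, NC, with replicates 1 to 4 from left to right in each group and the mean and SD beside them. The vertical axes differ between panels. Casq2, Jph2, Fxyd1, Mcu and Gja1 lie lower on all AngIV arrays than on all NC arrays, and Kcnh2 and Kcnj11 lie higher.

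The pump that refills the store and its inhibitor had small changes with narrow intervals. Atp2a2, the SERCA pump, had 12.21, 12.25, 12.13 and 12.16 on AngIV arrays 1 to 4, 12.21, 11.996, 12.17 and 12.12 on the DM arrays and 12.04, 12.14, 12.19 and 12.19 on the NC arrays. All 3 groups overlapped within 0.25 log2 units. The changes were 0.05 (95% interval -0.14 to 0.24) in AngIV against NC, 0.06 (-0.13 to 0.25) in AngIV against DM and -0.01 (-0.20 to 0.17) in DM against NC. Pln, phospholamban, had 11.87, 11.93, 11.99 and 11.98 on AngIV arrays 1 to 4, 11.89, 12.01, 12.02 and 11.97 on the DM arrays and 11.90, 12.06, 11.98 and 12.01 on the NC arrays. The 12 arrays spanned 0.19 units, and its changes were -0.05 (-0.23 to 0.13), -0.03 (-0.21 to 0.15) and -0.01 (-0.19 to 0.17) in AngIV against NC, AngIV against DM and DM against NC. In the fit over all 12 arrays, the intervals of both genes exclude changes beyond 0.25 log2 units in either direction. Fits on fewer arrays can have wider intervals.

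Slc8a1, the sodium calcium exchanger, had 8.66, 8.92, 8.94 and 8.76 on AngIV arrays 1 to 4, 8.95, 8.75, 8.91 and 8.82 on the DM arrays and 8.70, 8.71, 8.86 and 8.86 on the NC arrays. The groups overlapped, the AngIV arrays spreading most, and its change was 0.04 (95% interval -0.17 to 0.24) in AngIV against NC, -0.04 (-0.24 to 0.17) in AngIV against DM and 0.07 (-0.13 to 0.28) in DM against NC. Atp2b1, a calcium pump of the cell membrane, spanned 5.57 to 5.90 on the AngIV, 5.57 to 6.03 on the DM and 5.63 to 6.00 on the NC arrays. Mcu, the calcium uniporter of mitochondria, had 5.21, 5.39, 5.41 and 5.29 on AngIV arrays 1 to 4, 5.13, 5.58, 5.64 and 5.66 on the DM arrays and 5.54, 5.55, 5.91 and 5.63 on the NC arrays. The AngIV arrays lay below all NC arrays, whereas DM array 1 was the lowest of the 12 and the other DM arrays lay among the NC arrays. The AngIV mean, 5.33, and the DM mean, 5.50, were below the negative control percentile, so the change of -0.33 ± 0.13 in AngIV against NC (SE, limma adjusted p = 0.181) is one near background.

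None of the 5 calcium channel genes passed the test in any comparison, with limma adjusted p-values of 0.494 and above. Cacna1c, which encodes the pore of the L-type channel, had 9.01, 9.02, 8.90 and 9.07 on AngIV arrays 1 to 4, 8.96, 8.97, 9.05 and 8.94 on the DM arrays and 8.95, 8.95, 8.97 and 9.09 on the NC arrays. The arrays spanned 0.19 units with the groups overlapping, and the changes were 0.01 (95% interval -0.17 to 0.19) in AngIV against NC, 0.02 (-0.16 to 0.20) in AngIV against DM and -0.01 (-0.19 to 0.17) in DM against NC. Cacnb2 and Cacna2d1 encode accessory subunits of that channel. Cacnb2 spanned 7.58 to 8.06 on the AngIV, 7.56 to 7.85 on the DM and 7.57 to 8.20 on the NC arrays, and Cacna2d1 6.54 to 6.91, 6.56 to 6.78 and 6.65 to 6.90 on the AngIV, DM and NC arrays. Of the T-type channel genes, Cacna1h lay at 5.62 to 6.15 on the AngIV, 5.72 to 6.19 on the DM and 5.70 to 6.09 on the NC arrays, and Cacna1g was below the negative controls.

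Of the calcium sensors, Camk2g and S100a1 were lowest in DM. Camk2g, the gamma form of the CaM-dependent kinase II, had 6.83, 7.10, 6.76 and 6.96 on AngIV arrays 1 to 4, 6.69, 6.59, 6.84 and 6.92 on the DM arrays and 6.96, 6.97, 7.18 and 7.10 on the NC arrays. All DM arrays lay below all NC arrays, and the AngIV arrays overlapped both. Its change in DM against NC was -0.29 ± 0.11, 1.22-fold lower (SE, limma adjusted p = 0.344), and in AngIV against DM it was 0.15 ± 0.11 (adjusted p = 0.701). Camk2d, the delta form and the main one in the heart, spanned 8.82 to 8.97 on the AngIV, 8.66 to 9.08 on the DM and 8.58 to 8.99 on the NC arrays and changed by 0.03 ± 0.12 in DM against NC (adjusted p = 0.968). S100a1, a sensor protein that binds the release channel and the SERCA pump, spanned 8.94 to 9.06 on the AngIV, 8.68 to 9.03 on the DM and 9.01 to 9.32 on the NC arrays, with a change of -0.23 ± 0.10 in DM against NC (adjusted p = 0.434). Itpr2, an IP3 receptor, spanned 6.25 to 6.75 on the AngIV, 6.20 to 6.76 on the DM and 6.37 to 6.71 on the NC arrays.

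Around the sodium channel and the sodium pump, Fxyd1 had the largest negative change among the members in AngIV against NC. It encodes phospholemman, a small membrane protein that restrains the sodium pump of the heart. Fxyd1 had 9.49, 9.70, 9.70 and 9.69 on AngIV arrays 1 to 4, 9.48, 9.99, 10.16 and 10.12 on the DM arrays and 10.18, 10.31, 9.97 and 10.01 on the NC arrays. AngIV arrays 2 to 4 lay close together, AngIV array 1 lay lower, and all 4 lay below every NC array, while DM array 1 was lower than every AngIV array and the other 3 DM arrays lay above them. The change was -0.47 ± 0.14 in AngIV against NC, 1.38-fold lower (SE, limma adjusted p = 0.0886), -0.29 ± 0.14 in AngIV against DM (adjusted p = 0.567) and -0.18 ± 0.14 in DM against NC (adjusted p = 0.702). It passed the test in AngIV against NC under 4 of the 23 alternatives, among them the fit without DM array 1 (adjusted p = 0.0256), an array that enters this comparison only through the spread shared by the groups.

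Scn4b, a beta subunit of the sodium channel, spanned 6.38 to 6.89 on the AngIV, 6.78 to 7.19 on the DM and 6.47 to 6.95 on the NC arrays. It was highest in DM, with a change of -0.34 ± 0.14 in AngIV against DM (limma adjusted p = 0.526) and 0.30 ± 0.14 in DM against NC (adjusted p = 0.467). Atp1b1, the beta subunit of the sodium pump, spanned 9.21 to 9.35 on the AngIV, 9.17 to 9.35 on the DM and 9.03 to 9.32 on the NC arrays.

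Of the 13 potassium channel genes, 6 had a positive and 7 a negative change in AngIV against NC, with a median of -0.0003. The 3 with an unadjusted p under 0.05 all had positive changes, beside 10.9% of all tested genes with such a p and a positive change. Kcnh2 encodes ERG, the channel of the rapid delayed rectifier current. It had 7.86, 8.23, 7.99 and 7.88 on AngIV arrays 1 to 4, 7.89, 7.70, 7.82 and 7.54 on the DM arrays and 7.27, 7.76, 7.67 and 7.52 on the NC arrays. All AngIV arrays lay above all NC arrays, AngIV array 2 highest and NC array 1 lowest, and the DM arrays reached into both groups. The change was 0.44 ± 0.13 in AngIV against NC, 1.35-fold higher (SE, limma adjusted p = 0.0795), 0.25 ± 0.13 in AngIV against DM (adjusted p = 0.575) and 0.18 ± 0.13 in DM against NC (adjusted p = 0.650). With the atrial marker mean as a covariate the change in AngIV against NC was 0.36 ± 0.14 (adjusted p = 0.190), and without the 5 arrays with atrial signal 0.35 ± 0.14 (adjusted p = 0.275).

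Kcnj11 encodes Kir6.2, the pore of the ATP-sensitive potassium channel, which opens when ATP falls. It had 7.63, 7.59, 7.84 and 7.96 on AngIV arrays 1 to 4, 7.56, 7.91, 7.39 and 7.51 on the DM arrays and 7.31, 7.40, 7.27 and 7.47 on the NC arrays. The AngIV arrays lay above all NC arrays, and DM array 2 lay among the AngIV arrays. The change was 0.39 ± 0.12 in AngIV against NC, 1.31-fold higher (SE, limma adjusted p = 0.103), 0.17 ± 0.12 in AngIV against DM (adjusted p = 0.702) and 0.23 ± 0.12 in DM against NC (adjusted p = 0.544). With the atrial covariate the first of these was 0.44 ± 0.14, and without the 5 arrays with atrial signal it was 0.32.

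Kcnj12 encodes Kir2.2, a channel of the inward rectifier current that holds the resting voltage. Its signals were 6.22, 6.85, 6.82 and 6.87 on AngIV arrays 1 to 4, 6.54, 6.26, 6.35 and 6.06 on the DM arrays and 6.09, 6.05, 6.43 and 6.35 on the NC arrays. AngIV arrays 2, 3 and 4 lay above all other arrays and AngIV array 1 lay within the NC range, so the groups overlapped. The change was 0.46 ± 0.15 in AngIV against NC, 1.38-fold higher (SE, limma adjusted p = 0.124), and 0.39 ± 0.15 in AngIV against DM (adjusted p = 0.515). Without AngIV array 1 the change in AngIV against NC was 0.62 ± 0.13 and Kcnj12 passed the test (adjusted p = 0.0326). Kcnj2, which encodes Kir2.1, the other main channel of that current, had 4.81, 5.62, 4.92 and 4.79 on AngIV arrays 1 to 4, 5.35, 4.87, 5.55 and 5.36 on the DM arrays and 4.90, 5.26, 5.27 and 4.93 on the NC arrays. Its signals were near background and its groups overlapped, with AngIV array 2 apart from the other AngIV arrays, and the change in AngIV against NC was -0.05 (95% interval -0.45 to 0.34).

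Kcne1 encodes minK, the partner of Kcnq1 in the slow delayed rectifier current, and its signals were 4.63, 4.77, 4.42 and 4.62 on AngIV arrays 1 to 4, 5.30, 5.25, 5.41 and 4.72 on the DM arrays and 4.62, 4.41, 4.99 and 4.54 on the NC arrays. DM arrays 1, 2 and 3 lay above all AngIV and NC arrays and DM array 4 lay among them. The change was -0.56 ± 0.16 in AngIV against DM (SE, limma adjusted p = 0.372) and 0.53 ± 0.16 in DM against NC (adjusted p = 0.225), the smallest adjusted p of any member in each of these comparisons, with all group means below the negative control percentile. Kcnq1 spanned 5.57 to 5.77 on the AngIV, 5.40 to 5.90 on the DM and 5.63 to 5.73 on the NC arrays, and its change in DM against NC was 0.04 (95% interval -0.19 to 0.28).

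The transient outward current, which shapes the early action potential of the mouse, is carried by the channels of Kcnd2 and Kcnd3 with the accessory protein of Kcnip2. Kcnd2 had 6.45, 6.83, 6.22 and 6.26 on AngIV arrays 1 to 4, 6.29, 6.09, 6.82 and 6.42 on the DM arrays and 6.07, 6.89, 6.82 and 6.43 on the NC arrays. The spread within each group was wider than the differences between groups, with a change of -0.11 (95% interval -0.53 to 0.31) in AngIV against NC, 0.04 (-0.38 to 0.45) in AngIV against DM and -0.15 (-0.57 to 0.27) in DM against NC. Kcnip2 had 8.44, 8.14, 8.22 and 8.28 on AngIV arrays 1 to 4, 8.11, 8.02, 8.15 and 8.11 on the DM arrays and 7.88, 8.13, 8.13 and 8.34 on the NC arrays. The AngIV arrays overlapped both other groups, AngIV array 1 was the highest of the 12 and NC array 1 the lowest, and the change was 0.15 (-0.08 to 0.38), 0.17 (-0.06 to 0.40) and -0.02 (-0.25 to 0.21) in AngIV against NC, AngIV against DM and DM against NC. Kcnd3 spanned 5.53 to 5.74 on the AngIV, 5.33 to 5.54 on the DM and 5.19 to 5.58 on the NC arrays, near background.

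The remaining potassium channel genes gave no adjusted p under 0.3005 in any comparison. Kcna5, which encodes a channel of the ultrarapid delayed rectifier, spanned 6.02 to 6.47 on the AngIV, 5.86 to 6.45 on the DM and 5.85 to 6.20 on the NC arrays. Kcnj3 encodes a subunit of the acetylcholine-gated channel and is typical of atrial muscle. It spanned 6.49 to 7.36 on the AngIV, 7.01 to 7.25 on the DM and 7.005 to 7.53 on the NC arrays. Its change in AngIV against NC was -0.32 ± 0.16 (SE, limma adjusted p = 0.3005). With the atrial marker mean as a covariate that change was -0.45 ± 0.18, and without the 5 arrays with atrial signal -0.42. A link to atrial tissue was not tested. Kcnk3, a channel of the background current, spanned 6.33 to 6.61 on the AngIV, 6.53 to 6.70 on the DM and 6.44 to 6.74 on the NC arrays. Kcnv2, a silent subunit, stayed below the negative controls, with group means of 4.70, 5.01 and 4.83 in AngIV, DM and NC.

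The pacemaker channel genes were near background. Hcn4 had 4.03, 4.11, 4.51 and 3.60 on AngIV arrays 1 to 4, 4.21, 4.34, 4.03 and 4.06 on the DM arrays and 4.33, 4.88, 4.58 and 3.99 on the NC arrays. NC array 2 was the highest and AngIV array 4 the lowest of the 12, the groups overlapped, and the change was -0.38 (95% interval -0.79 to 0.03) in AngIV against NC, -0.10 (-0.51 to 0.31) in AngIV against DM and -0.29 (-0.70 to 0.13) in DM against NC. Hcn2 spanned 4.06 to 4.37 on the AngIV, 3.93 to 4.25 on the DM and 3.58 to 4.62 on the NC arrays.

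Gja1, the gap junction gene, was lower in both diabetic groups than in NC, without passing the test. It encodes the main gap junction protein between ventricular muscle cells, the connexin known as Cx43. Gja1 had 9.86, 9.70, 9.76 and 9.48 on AngIV arrays 1 to 4, 9.20, 9.58, 9.87 and 9.87 on the DM arrays and 9.92, 10.10, 10.18 and 10.03 on the NC arrays. All AngIV and all DM arrays lay below all NC arrays, with DM array 1 the lowest of the 12, and the AngIV and DM arrays overlapped. The change was -0.36 ± 0.14 in AngIV against NC, 1.28-fold lower (SE, limma adjusted p = 0.190), 0.07 ± 0.14 in AngIV against DM (adjusted p = 0.919) and -0.43 ± 0.14 in DM against NC, 1.35-fold lower (adjusted p = 0.287). The changes in AngIV against NC and DM against NC share the NC arrays. Without the 5 arrays with atrial signal, which leaves DM array 3 as the only DM array, the change in DM against NC was -0.20.

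**Figure D5:**
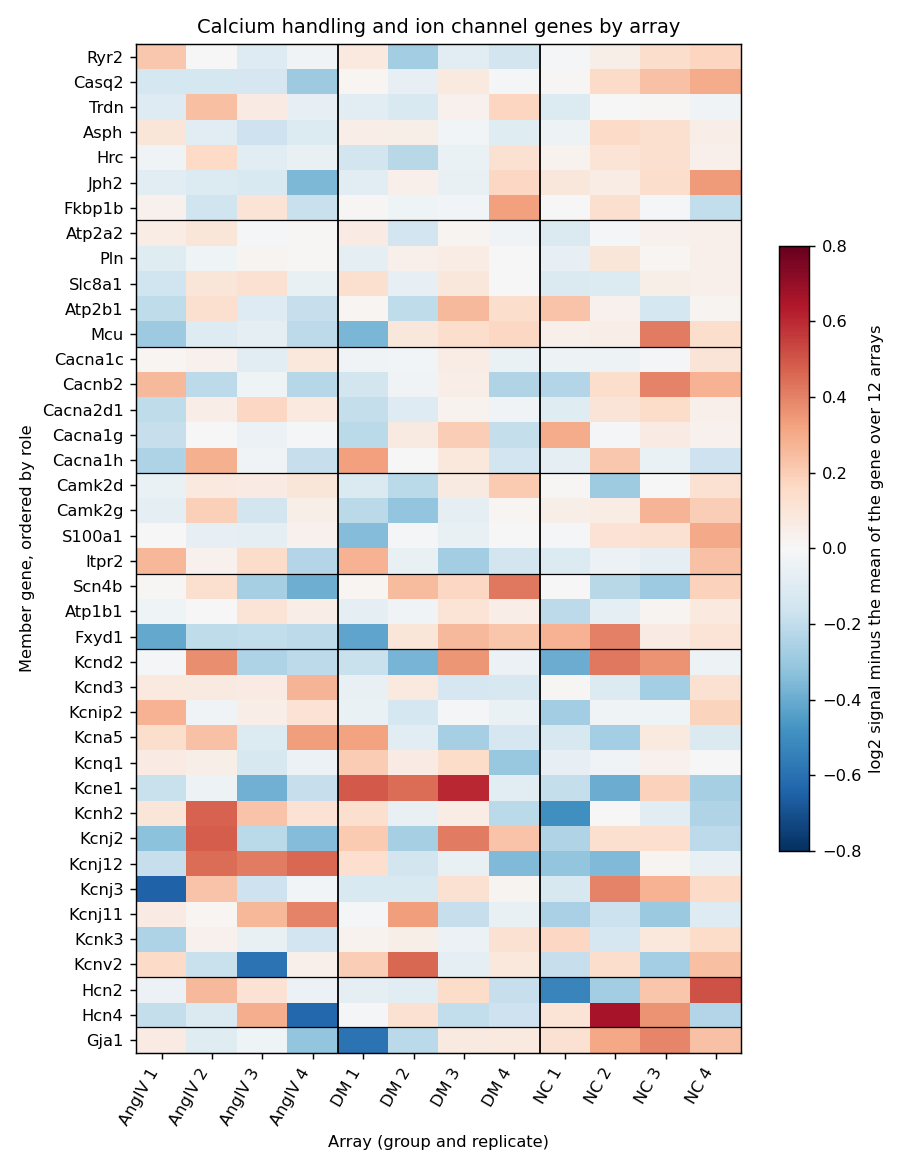
Log2 signal of each of the 40 members on each array, minus the mean of that gene over the 12 arrays, with members in the order of their roles and lines between roles. No group stands apart as a block of one colour. Kcnj3 on AngIV array 1, Gja1 on DM array 1 and Hcn4 on AngIV array 4 are among the lowest, and Hcn4 on NC array 2 is the highest.

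The median SD of the members within a group was 0.154 log2 units (0.0611 to 0.326), beside 0.182 for all tested genes. The mean signal was above the negative controls for 31 of the 39 members and for 6344 of the 13653 tested genes. The SDs were not compared at like brightness. NC array 1, which had the highest atrial and smooth muscle marker means and the lowest ventricular mean, was the lowest NC array for 23 of the 39 tested members and the highest for 3, whereas NC array 4 was the highest for 15 and the lowest for 2. AngIV array 2 was the highest AngIV array for 15 members and the lowest for 2, and AngIV array 1 the lowest for 15 and the highest for 9. DM array 3 was the highest DM array for 15 members and the lowest for 7. These counts were made over the members only and not over all tested genes, so they may not be particular to the members. A link between them and the marker means was not tested.

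A wider list of 155 genes of calcium handling, ion channels and their regulators gave 2 calls. Of the 155, 130 had a probe set and 106 were tested. In AngIV against NC 2 were called, both higher, beside 1.52% of all tested genes called higher, and 26 had an unadjusted p under 0.05 (24.5%, beside 18.6% of all tested genes). In AngIV against DM 0 were called by limma and 14 had an unadjusted p under 0.05 (13.2%, beside 8.78%), and in DM against NC 0 were called by limma and 17 did (16.0%, beside 10.7%). Trpm7, which encodes a cation channel joined to a kinase, rose in AngIV against NC, with 7.91, 8.03, 7.86 and 8.09 on AngIV arrays 1 to 4, 7.99, 7.83, 7.67 and 7.19 on the DM arrays and 7.27, 7.23, 7.38 and 7.34 on the NC arrays. All AngIV arrays lay above all NC arrays, and DM array 4 lay below the NC arrays. The change was 0.67 ± 0.14 (SE, limma adjusted p = 0.0249), and it missed the threshold when NC array 1, 2 or 4 or AngIV array 2, 3 or 4 was left out (adjusted p up to 0.0756). In DM against NC it was 0.37 ± 0.14 (adjusted p = 0.362).

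Klf15 encodes a transcription factor of the Krüppel-like family, known in mice to control Kcnip2. It rose in AngIV against NC, with 5.97, 6.63, 6.50 and 6.73 on AngIV arrays 1 to 4, 6.36, 6.35, 6.03 and 5.99 on the DM arrays and 5.95, 5.58, 5.73 and 5.92 on the NC arrays. The AngIV arrays and the DM arrays both lay above all NC arrays, AngIV array 1 narrowly. The change was 0.67 ± 0.16 in AngIV against NC (SE, limma adjusted p = 0.0412), 0.28 ± 0.16 in AngIV against DM (adjusted p = 0.623) and 0.39 ± 0.16 in DM against NC (adjusted p = 0.386). The call was lost in 10 of 23 alternatives, among them leaving out any NC array or AngIV array 2, 3 or 4 and leaving out the 5 arrays with atrial signal (adjusted p = 0.161).

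The next genes of the list in AngIV against NC did not pass the test. Srl, which encodes the calcium binding protein sarcalumenin of the store membrane, spanned 8.91 to 9.22 on the AngIV, 9.10 to 9.33 on the DM and 9.27 to 9.58 on the NC arrays, with a change of -0.43 ± 0.11 in AngIV against NC (SE, limma adjusted p = 0.0518). Ppp3ca, a catalytic subunit of the calcium-activated phosphatase calcineurin, spanned 8.23 to 8.44 on the AngIV, 7.70 to 8.23 on the DM and 7.63 to 7.95 on the NC arrays, with a change of 0.52 ± 0.13 (adjusted p = 0.0522). Jph1, a junctophilin typical of skeletal muscle, changed by 0.43 ± 0.13 (adjusted p = 0.104), opposite in sign to Jph2. Cav3, which encodes the caveolin of muscle, changed by -0.29 ± 0.10 in AngIV against NC (adjusted p = 0.124) and by -0.31 ± 0.10 in DM against NC (adjusted p = 0.260). Casq1, the calsequestrin of skeletal muscle, was below the negative controls in all groups, with a difference of -1.19 ± 0.35 (adjusted p = 0.0836).

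In AngIV against DM the smallest p-values of the list were those of Kcnn2, Trpm4, Tbx3, Stim1 and Sln. Kcnn2, a calcium-activated potassium channel, spanned 5.78 to 6.07 on the AngIV, 5.31 to 5.56 on the DM and 5.20 to 5.93 on the NC arrays, and Trpm4, a calcium-activated cation channel, 5.73 to 5.93 on the AngIV, 5.25 to 5.62 on the DM and 5.43 to 5.62 on the NC arrays. All AngIV arrays lay above all DM arrays for both, with changes of 0.53 ± 0.14 and 0.38 ± 0.11 (SE, limma adjusted p = 0.372 for each), and the DM means of both were below the negative control percentile. Tbx3, a transcription factor of the conduction system, and Stim1, the calcium sensor of the store, were below the negative controls, with differences of -0.39 ± 0.12 and 0.34 ± 0.12. Sln encodes sarcolipin, a SERCA regulator found in the atria of the mouse. Its signals were 5.09, 4.83, 5.02 and 5.01 on AngIV arrays 1 to 4, 7.65, 8.83, 5.16 and 7.28 on the DM arrays and 9.35, 5.34, 7.32 and 5.16 on the NC arrays. They were high on the 5 arrays on which Myl7 was high, and the AngIV mean was below the negative control percentile (adjusted p = 0.492).

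In DM against NC the smallest p-values of the list were those of Camk2b, Akap7, Jph3, Cav3 and Kcnn1. Akap7, which anchors protein kinase A near calcium channels and phospholamban, spanned 7.79 to 8.00 on the AngIV, 7.88 to 8.25 on the DM and 7.43 to 7.82 on the NC arrays, with all DM above all NC arrays and a change of 0.39 ± 0.11 in DM against NC (SE, limma adjusted p = 0.222). Kcnn1, another calcium-activated potassium channel, changed by -0.31 ± 0.11 (adjusted p = 0.331). Camk2b, the beta form of the CaM-dependent kinase II, and Jph3, the junctophilin of the brain, lay below the negative controls in every group, with differences of -0.90 ± 0.19 (adjusted p = 0.0985) and 0.48 ± 0.14 (adjusted p = 0.223).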

How the data were processed

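Total RNA of 12 mouse myocardium samples was measured on 1-colour Affymetrix arrays. The deposited file is a table of log2 values that the authors computed with RMA, according to the submitters' processing notes. That the scale is log2 follows from its range, and neither the RMA version nor the genome build is given in the sources used here. RMA normally forces arrays to 1 distribution, so a change in total mRNA cannot be seen, and it compresses differences near background. Control probe sets (6923 of 29129) were left out. The platform annotation gave 1 symbol to 19572 transcript probe sets, none to 2634 and several to 0, and all 19572 matched a RefSeq gene by Entrez ID. The brightest probe set per gene was kept, and the dimmest 30% of genes (mean log2 signal under 3.40) were left out.

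limma 3.58.1 (R 4.3.3; lmFit, eBayes) was fitted over all 12 arrays with 1 mean per group and checked on simulated data. The labels state no test. Replicate numbers were not used to pair the samples in the main fit. Deviations of same-numbered arrays correlated at -0.12 to 0.21 over 12 pairs, with 2 over 0.1. Differently numbered arrays gave -0.21 to 0.23 over 36 pairs, with 5 over 0.1. With 4 arrays per group, these correlations cannot tell whether same-numbered arrays were processed together. Array 1 had the highest negative control percentile of its group in NC (5.57), DM (5.60) and AngIV (5.59). The number of arrays limits the precision (median SE 0.127 log2 units). No scan date is given, so batches could not be tested. The members and lists were chosen with earlier results of these data known. Array values are given for members with an unadjusted p under 0.01 or groups that do not overlap in at least 1 comparison, and always for Ryr2, Atp2a2, Pln, Slc8a1, Cacna1c, Kcnd2, Kcnip2, Kcnj2, Hcn4 and Gja1; of the wider list, the called genes and the 5 smallest p-values per comparison are named. Alternatives changed the filter, normalization, prior, arrays fitted, probe set rule, replicate block and an atrial covariate. Promoter sequences are from RefSeq (GRCm38.p6).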

Additional observations from a re-analysis of the deposited data

Results flagged for a closer look

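In 8 of 120 sets of 4 arrays, 1 array stood apart from the other 3 by more than Dixon's 95% critical value for the gap over the range, and chance alone flags about 1 set in 20. On AngIV array 4, Casq2 was at 9.66 against 9.81 to 9.82 on the other AngIV arrays, Jph2 at 7.42 against 7.65 to 7.69, and Kcnd3 at 5.74 against 5.53 to 5.54. On AngIV array 1, Fxyd1 was at 9.49 against 9.69 to 9.70 and Kcnj12 at 6.22 against 6.82 to 6.87. On AngIV array 2, Kcnj2 was at 5.62 against 4.79 to 4.92, near background. On DM array 1, Mcu was at 5.13 against 5.58 to 5.66 on the other DM arrays, and on DM array 4 the untested Fkbp1b was at 1.96 against 1.60 to 1.64, far below the negative controls.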

How the results depend on the processing

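In AngIV against DM and in DM against NC, 0 and 3 of the 13653 tested genes were called in the fit over all arrays. There the count of 0 called members held under all 23 alternatives, 1 of which, the mean over probe sets, leaves the members' signals unchanged. With only genes above the negative controls tested in AngIV against NC, 5 of 31 members were called, beside 594 of 6344 genes. These were Casq2, Fxyd1, Jph2, Kcnh2 and Kcnj11. A trend in the prior gave 3 of 39 members (Casq2, Fxyd1 and Kcnh2), beside 576 of 13653 genes. With the dimmest 50% left out it was 1 of 36 (Casq2), beside 504 of 9752 genes. With arrays centred on their medians it was 1 of 39 (Casq2), beside 336 of 13653 genes. The atrial covariate gave 1 of 39 (Casq2), beside 377 of 13653 genes. The fit on only the arrays of AngIV and NC gave 1 of 39 (Fxyd1), beside 466 of 13653 genes. Leaving out 1 array gave 0 to 1 called members in AngIV against NC (Fxyd1 without DM array 1, Kcnj12 without AngIV array 1) and 0 to 0 in the other comparisons. Of all 13653 genes, 469 were called in AngIV against NC without DM array 1 and 251 without AngIV array 1. Small changes turned sign: of the 39 members, 14 in AngIV against NC, 15 in AngIV against DM and 21 in DM against NC changed sign under at least 1 alternative, among them Gja1 in AngIV against DM and Kcnj11 and Fxyd1 in DM against NC. None of these had a change over 0.23 log2 units or an unadjusted p under 0.0836 in the fit over all arrays.

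Over all genes, 293 were called in AngIV against NC, and 504 with the dimmest 50% left out, 594 with only genes above the negative controls, 576 with a trend in the prior, 466 with only those arrays and 102 without the 5 arrays with atrial signal. The count ranged from 104 to 469 when 1 array was left out, and moved by over 1.5 times without AngIV array 2, 3 or 4 (155, 106 and 104), DM array 1 (469) or NC array 1, 2 or 4 (163, 107 and 185). In DM against NC it was 3, and under those settings in the same order 20, 24, 29, 5 and 0, with 6 under the atrial covariate and 3 to 30 when 1 array was left out (9 and 30 without DM arrays 3 and 4, 10 and 5 without NC arrays 1 and 2). In AngIV against DM it was 0 and 0 to 5 (5 without AngIV array 2, 1 without DM array 2).

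The median change of the members in AngIV against DM, 0.021, was -0.062 with the atrial covariate and -0.063 without the 5 arrays, and -0.028 to 0.045 when 1 array was left out. In AngIV against NC, -0.046, it was -0.10 with the covariate and -0.11 to -0.021 when 1 array was left out, and in DM against NC -0.047 to 0.013. The causes were not tested. Whether same-numbered arrays were processed together is not known. With the replicate numbers as a block (replicate block) 218, 0 and 3 genes and 0 members were called in AngIV against NC, AngIV against DM and DM against NC. Klf15 missed the threshold under the block (adjusted p = 0.0804) and without the filter on dim genes (adjusted p = 0.0621). Signal near background limits 9 of the 40 members.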
